A study of Mus musculus with 16 samples.

Results

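The caput epididymis of castrated mice given estradiol was compared with that of sham-castrated mice, to describe which transcripts stood below or above the sham level under estradiol. The comparison uses 4 of the 16 arrays of the series, 2 of estradiol-treated castrated mice and 2 of sham mice, chosen by their labels and not by measured values. All animals were adult male 129BL/6 mice, operated on 14 days before the injection and dissected 12 hours after 1 injection. The estradiol group was castrated and received 0.015 mg estradiol in 100 µL sesame oil with 10% ethanol. The sham group was sham-castrated and received that oil mixture alone. Surgery and hormone therefore differ together between these groups, and a further 2 caput groups of 2 arrays each were set beside them: castrated mice given 0.015 mg testosterone propionate (TP), and castrated mice given the oil mixture alone. The labels do not say whether the 2 arrays of a group came from separate animals, so p-values measure only the spread between these samples, which may be technical.

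The epididymis carries sperm away from the testis, and its first large region, the caput, secretes much of the protein that coats them. Its epithelium depends on androgen from the blood and, in its first part, on factors that arrive from the testis in the luminal fluid and act through receptor tyrosine kinase and ERK signalling. Castration removes both supplies together with the sperm. Estradiol acts through estrogen receptors, which epididymal tissue also expresses.

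Values are the deposited array intensities on a linear scale, 1 probe set per gene, for 18194 genes. Background, taken on each array as the highest of 27 bacterial control probe sets, was 7.82 to 12.3 on the caput arrays, and 69.1% to 76.2% of all probe sets lay above it. Duplicates differed by a median of 0.217 on the log2 scale for estradiol and 0.173 for sham. The 3' over 5' signal ratio of actin, a measure of RNA integrity, was 0.877 and 1.02 (log2) on the estradiol arrays, against 0.636 and 0.751 on the sham arrays, and its part in the differences below was not tested. Caput markers were bright in sham: Lcn5 stood at 11767 and 12020.5, Gpx5 at 8388 and 8586 and Adam7 at 8643 and 8372. In tissue RNA, fewer cells of a type and less RNA per cell cannot be told apart.

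A gene was called when limma's p for estradiol minus sham, adjusted over all 18194 genes, was under 0.05. In total 3148 genes were called (17.3%), 1819 higher with estradiol (10.0%) and 1329 lower (7.30%). Of the 14008 genes with a mean above 16 in either group, 2997 were called (21.4%), 1751 higher (12.5%) and 1246 lower (8.89%). Of the 14008, 722 were above 16 in the estradiol group alone and 846 in the sham group alone, and the values nearest the threshold were 16.009 inside and 15.984 outside. The 2 groups did not overlap for 71.4% of these genes, so that lack of overlap alone says little. By the fitted difference, 145 of the called genes were at least 8-fold lower and 45 at least 8-fold higher. In the same way 659 were at least 2-fold lower and 931 at least 2-fold higher. These counts include values below background, where the size of a difference is uncertain. For 78 genes called lower and 73 called higher, both arrays of 1 group lay at or below background, and only a bound holds. Precision is limited by the number of arrays, with a median 95% interval of ± 0.48 (log2) around a difference. The count of called genes was 1091 without estradiol replicate 1, 1337 without estradiol replicate 2, 589 without sham replicate 1 and 818 without sham replicate 2. Those fits have fewer residual degrees of freedom. It was 5, all lower, when the 4 arrays were fitted without the other caput groups, 2033 when the probe sets of each gene were averaged, and 4966 when limma's variance was allowed to follow intensity. The 4 fits without 1 estradiol or sham array were then compared gene by gene. All 133 called genes picked for naming kept their direction in these 4 fits, and 58 of them kept their call in all 4.

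**Figure D1:**
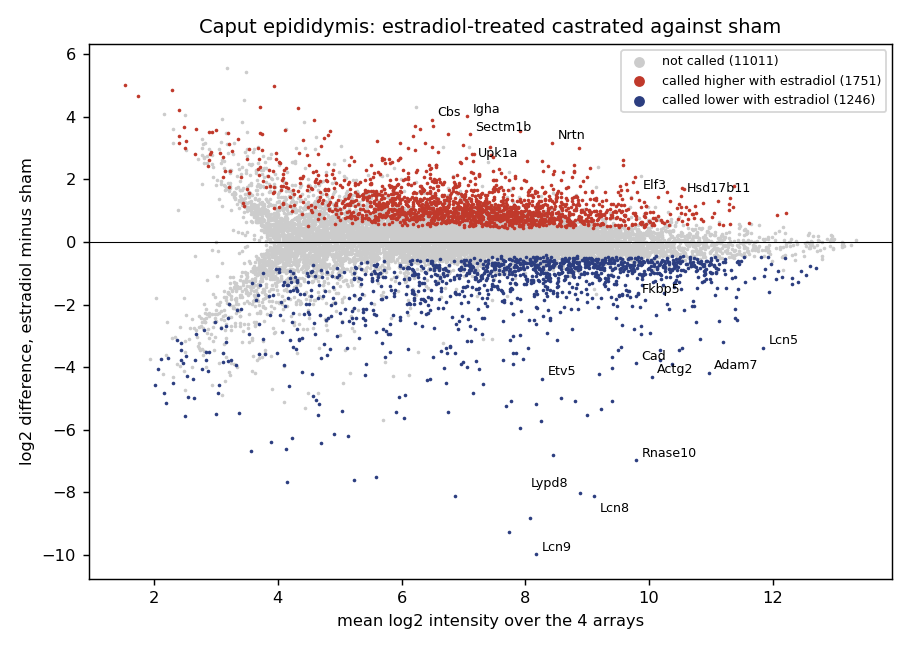
Log2 difference between estradiol-treated castrated and sham caput (vertical axis) against the mean log2 intensity of the 4 arrays (horizontal axis) for the 14008 genes above 16 in either group. Red points are the 1751 genes called higher with estradiol, blue points the 1246 called lower, grey points the rest. The labelled secretory genes Lcn9, Lcn8 and Rnase10 are among the lowest points.

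Secreted proteins of the caput were among the largest falls. Lcn8, a lipocalin that carries small lipophilic molecules, had intensities of 18.4 and 60.4 with estradiol, against 9349.5 and 8970.3 in sham. Its difference was -8.10 ± 0.67 (log2 ± SE, adjusted p = 0.00509). The related Lcn9 stood at 13.0 and 6.33 with estradiol, against 9128 and 9289 in sham (-9.99 ± 0.85, adjusted p = 0.00521). For Lcn9 only 1 of the 2 estradiol arrays lay above background, and the groups of both genes are far apart. Teddm2, of a family of epididymal membrane proteins, read 16.7 and 9.59 with estradiol, against 5803 and 5648 in sham (-8.82 ± 0.76, adjusted p = 0.00522). Rnase10, a secreted member of the ribonuclease A family found in the proximal epididymis, read 67.8 and 92.6 with estradiol, against 10312 and 9692 in sham, a 126-fold fall (adjusted p = 0.000752). Its estradiol arrays stayed above background. Lypd8, a protein with a Ly6 domain, read 31.6 and 27.3 with estradiol, against 7389 and 7833 in sham, a 259-fold fall (adjusted p = 0.000752).

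Other large falls followed, not all of them of secreted proteins. Crisp4, a cysteine-rich secretory protein that binds sperm, had 55.6 and 31.96 with estradiol, against 2007 and 2415 in sham, and fell 52.2-fold (adjusted p = 0.00357). Lcn12 fell 61.4-fold (adjusted p = 0.00188), the metalloprotease-family gene Adam28 fell 46.2-fold (adjusted p = 0.00274), the protease inhibitor gene Spink2 fell 40.2-fold (adjusted p = 0.00720), and the collagen chain gene Col6a4 fell 42.9-fold (adjusted p = 0.00358). Lrcol1, a colipase-like gene, was below background on both estradiol arrays and at 1745 and 2178 in sham, a fall of at least 221-fold (adjusted p = 0.0145, and 0.0713 without sham replicate 1). Rab26, a small GTPase of secretory vesicles, fell at least 59.5-fold (adjusted p = 0.0111, and 0.0617 without sham replicate 1), and the RNA exosome gene Exosc6 at least 28.6-fold (adjusted p = 0.00794). These bounds use the background of each estradiol array in place of the measured value.

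**Figure D2:**
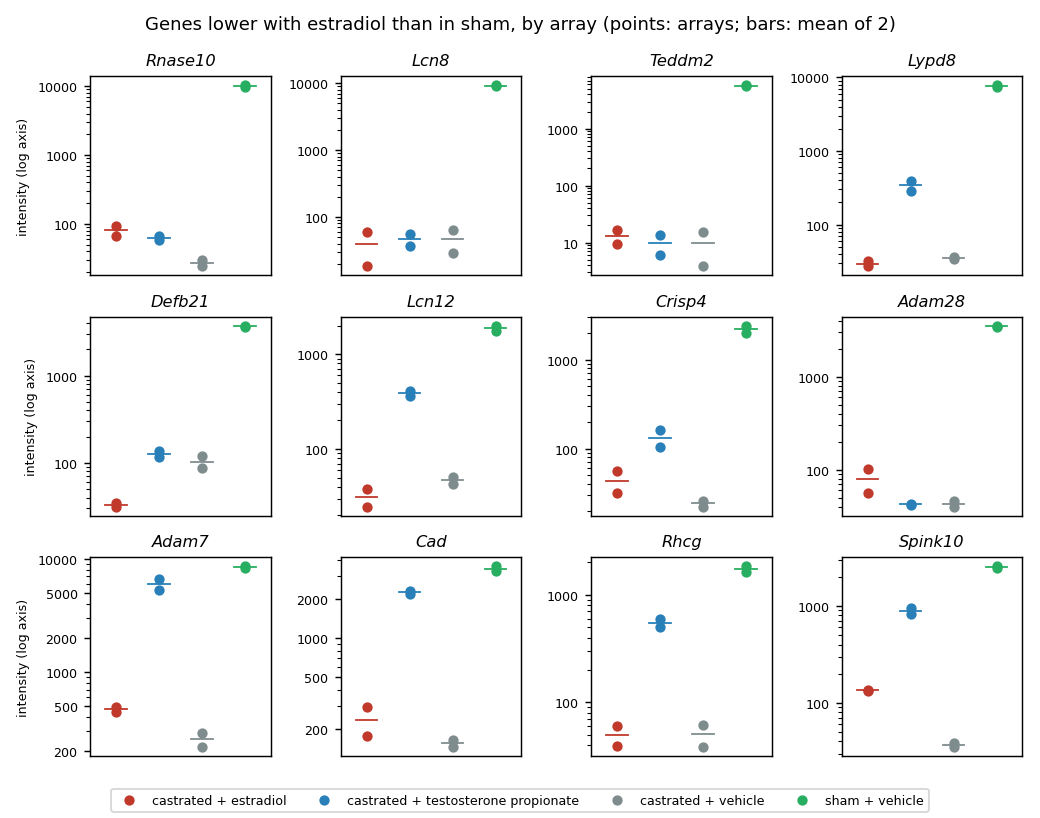
Intensity on a log axis for 12 genes called lower with estradiol than in sham, by array. Points are arrays and bars the mean of 2, for castrated mice with estradiol (red), castrated mice with TP (blue), castrated mice with vehicle (grey) and sham (green). Adam7, Cad, Rhcg and Spink10 are lower with estradiol than with TP, while Lcn8, Teddm2 and Adam28 are low with both hormones.

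Of 24 measured genes on a list of caput and initial segment secretory proteins, 16 were called lower and 0 higher with estradiol, and 8 were not called, against 7.30% of all genes lower. The list's median difference was -3.56, beside 0.078 over all genes. The count was 13 without estradiol replicate 1, 12 without estradiol replicate 2 and 11 without either sham array. In castrated vehicle caput against sham, 15 members were called lower, where 14.0% of all genes were called, 7.88% higher and 6.16% lower. With TP against sham 14 members were called lower, where 9.44% of all genes were called, 4.78% higher and 4.67% lower. These comparisons share the sham arrays. Gpx5, a secreted glutathione peroxidase that protects sperm from oxidation, had a smaller fall and read 4141 and 2989.9 with estradiol, against 8388 and 8586 in sham, a 2.41-fold fall (adjusted p = 0.0206, and 0.0915 without sham replicate 1). Lcn5, a retinoid-binding lipocalin, differed between the estradiol arrays, with 2140.4 and 616 with estradiol, against 11767 and 12020.5 in sham (-3.37 ± 0.66, adjusted p = 0.0294, and 0.114 without sham replicate 1). Other abundant secretory transcripts were not called. Clu, the chaperone clusterin, read 10762 and 8547 with estradiol, against 10138 and 10174 in sham (-0.08 ± 0.21, adjusted p = 0.816), and Spink8, another protease inhibitor of the Kazal type, read 8822 and 7722 with estradiol, against 7701 and 7955 in sham (0.08 ± 0.15, adjusted p = 0.762).

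Beta-defensins are small cationic antimicrobial peptides, many of them made by the epididymis. Of 19 measured, 7 were called lower, 0 higher and 12 not called, with a median of -0.83. Over all genes 7.30% were called lower and 10.0% higher. The count was 5 without estradiol replicate 1 and 3 without any other of the 4 arrays. Defb21 had 34.8 and 31.5 with estradiol, against 3757 and 3664 in sham, a 112-fold fall (adjusted p = 0.000752). Defb35 had 484 and 437 with estradiol, against 6237 and 3691 in sham, a 10.4-fold fall (adjusted p = 0.00497). In castrated vehicle caput Defb35 read 2602 and 2975, closer to sham than to estradiol, and with TP it read 448 and 535. Defb15 fell 15.1-fold (adjusted p = 0.0166, and 0.0776 without sham replicate 2) and Defb10 fell 10.1-fold (adjusted p = 0.0225, and 0.105 without sham replicate 1).

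Genes of the ERK pathway that responds to testicular luminal factors were called in both directions. The transcription factor gene Etv5, which ERK signalling induces in the initial segment, read 87.8 and 53.0 with estradiol, against 1429 and 1385 in sham, a 20.6-fold fall (adjusted p = 0.00401). The ERK phosphatase gene Dusp6 read 182 and 133 with estradiol, against 813 and 615 in sham, and fell 4.54-fold (adjusted p = 0.00654). Dusp4 differed by -1.54, Dusp5 by -1.63 and the receptor kinase gene Ros1 by -1.35 on the log2 scale, all called lower. The related ETS gene Etv4, also called lower, read 17.6 and 3.61 with estradiol, the second below background, against 118 and 80.0 in sham. The receptor genes Fgfr1 and Fgfr2, the kinase gene Src, and Ets2 and Phlda1 were called higher, with differences of 0.66 to 1.65. In the list of 26 genes, 6 were called lower and 5 higher, with a median of 0.09, beside 7.30% of all genes lower and 10.0% higher. Lower calls numbered 3 and 4 without estradiol replicate 1 and 2, and 2 and 3 without sham replicate 1 and 2. Higher calls numbered 4 without estradiol replicate 2 and 2 without any other of these arrays. The adjusted p reached 0.170 for Etv4 without sham replicate 1 and 0.164 for Src without sham replicate 2.

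Androgen-induced genes did not all lie on one side of sham. Fkbp5, a chaperone gene that androgen and glucocorticoid receptors induce, read 503 and 473 with estradiol, against 1540.2 and 1715 in sham, a 3.33-fold fall (adjusted p = 0.00402). With TP it read 1819 and 1717, and estradiol minus TP was -1.86 (log2, adjusted p = 0.0138). Cad, the enzyme that starts pyrimidine synthesis, read 297 and 179 with estradiol, 2292 and 2193 with TP, 167 and 147 in castrated vehicle caput and 3248 and 3565 in sham, and fell 14.8-fold against sham (adjusted p = 0.00393). The transporter gene Abcc4 fell 4.26-fold (adjusted p = 0.00441). Tmprss2, a membrane protease gene that androgen induces in human prostate, was higher instead, with 266 and 335 with estradiol, against 45.9 and 58.8 in sham, 5.75-fold (adjusted p = 0.00451). Of 31 androgen response genes 4 were called lower (12.9%) and 3 higher (9.68%), near the shares over all genes of 7.30% and 10.0%, with a median of 0.12. Without sham replicate 1 or 2 the counts were 3 lower and 1 higher.

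Estradiol and TP had been given at the same mass dose and time, and their groups share no array. Between them 387 of 18194 genes were called (2.13%), 181 higher with estradiol (0.995%) and 206 lower (1.13%). Of the 24 secretory genes 4 were called lower with estradiol than with TP and 1, Ros1, higher, with a median of -0.13. Adam7, a sperm-associated metalloprotease-family protein, read 449.7 and 492 with estradiol, 5299.9 and 6705 with TP and 8643 and 8372 in sham, and estradiol minus TP was -3.66 (log2, adjusted p = 0.0105). Spink10 read 133 and 137 with estradiol, 945 and 822 with TP and 2478 and 2578 in sham (estradiol minus TP -2.71, adjusted p = 0.00759). Lypd8 differed by -3.52 (adjusted p = 0.0105), Lcn12 by -3.66 (adjusted p = 0.0138) and the ammonium transporter gene Rhcg by -3.50 (adjusted p = 0.0182). Rnase10 and Lcn8 were low in both, with estradiol minus TP at 0.33 (adjusted p = 0.480) and -0.44 (adjusted p = 0.791). Ccno, a regulator of multiciliated cells, read 52.7 and 49.2 with estradiol, 401 and 369 with TP and 294 and 287 in sham, so that the TP arrays lay above both other groups (estradiol minus TP -2.92, adjusted p = 0.00764).

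Of 21 genes of cholesterol synthesis and uptake, 13 were called lower, 0 higher and 8 not called, with a median of -1.24. Over all genes 7.30% were called lower and 10.0% higher with estradiol. Tm7sf2, a sterol reductase, read 85.5 and 80.5 with estradiol, against 502 and 458 in sham, a 5.78-fold fall (adjusted p = 0.00393). The sterol dehydrogenase gene Nsdhl read 344 and 342 with estradiol, against 1392 and 1334 in sham, a 3.97-fold fall (adjusted p = 0.00340), and lay at 808 and 881 with TP. The kinase gene Pmvk fell 3.75-fold (adjusted p = 0.0110, and 0.0602 without sham replicate 1) and the sterol oxidase gene Msmo1 3.50-fold (adjusted p = 0.00929). Members not called included Hmgcs1 (-0.31), the regulator Srebf2 (-0.13) and Stard4 (0.12). With 1 array left out, the number called lower was 5 and 6 without estradiol replicate 1 and 2, and 3 and 7 without sham replicate 1 and 2. In castrated vehicle caput 14 members were called lower than sham (6.16% of all genes), with a median of -1.25. With TP 2 were (4.67%), with a median of -0.68, and 1 member was called lower with estradiol than with TP.

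Of 40 genes of folding, quality control and export in the endoplasmic reticulum, 19 were called lower with estradiol, 0 higher and 21 not called. Their median was -0.48, and over all genes 7.30% were called lower and 10.0% higher. Manf, a secreted chaperone of the stressed endoplasmic reticulum, read 1451 and 1463 with estradiol, against 4049.9 and 4056 in sham, a 2.78-fold fall (adjusted p = 0.00419), and 3709 and 3555 with TP. The disulfide isomerase gene Pdia5 fell 3.07-fold (adjusted p = 0.0106, and 0.0564 without sham replicate 1), the export factor gene Derl3 fell 3.04-fold (adjusted p = 0.0369, and 0.140 without sham replicate 1) and Sdf2l1 2.54-fold (adjusted p = 0.0257, and 0.0964 without estradiol replicate 2). The most abundant chaperones were not called: Hspa5, or BiP, had 4842 and 5130.2 with estradiol, against 6632 and 6871 in sham (-0.44, adjusted p = 0.0973), and Canx, or calnexin, had 2955 and 3004 with estradiol, against 2917 and 3032 in sham (0.00236, adjusted p = 0.990). Called members numbered 6 without either estradiol array and 3 without either sham array. In castrated vehicle caput 17 members were called lower than sham (6.16% of all genes) and 0 higher, with a median of -0.54. Between estradiol and castrated vehicle 0 members were called. With TP 0 members were called lower than sham and 1 higher, and 9 were called lower with estradiol than with TP.

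**Figure D3:**
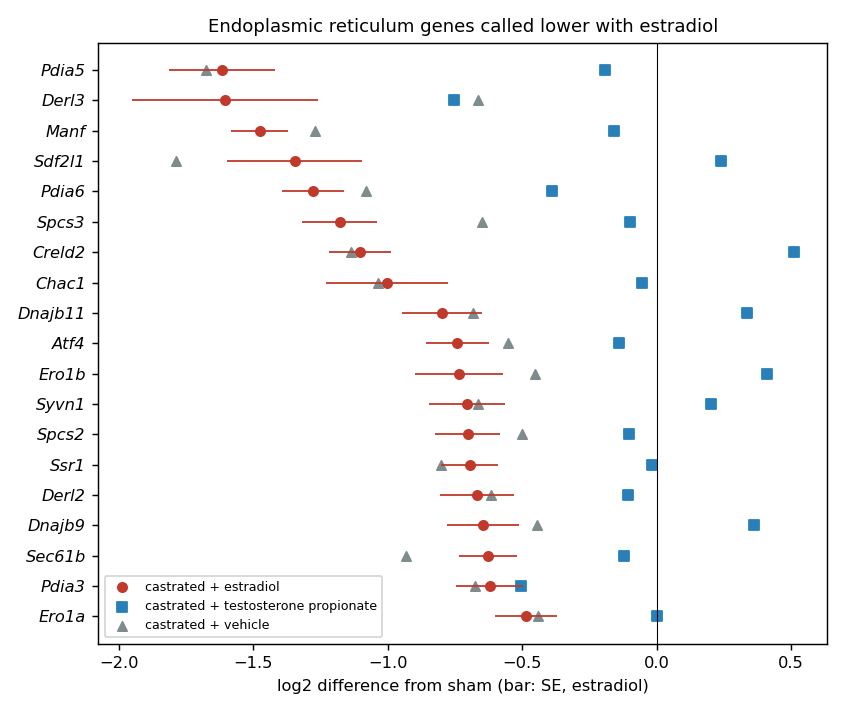
Log2 difference from sham for the 19 endoplasmic reticulum genes called lower with estradiol, with the SE of the estradiol difference as a bar. Red circles are castrated mice with estradiol, blue squares with TP and grey triangles with vehicle. Estradiol values run from -1.62 to -0.48, and the TP square lies nearer 0 than the estradiol circle for all 19. The genes were chosen by their estradiol difference, which favours this order, and all points share the sham arrays.

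The 5 promoters that follow are shown because they hold the endoplasmic reticulum stress element (ERSE), the motif that stress-activated transcription factors read at chaperone genes, and belong to genes of that list called lower with estradiol. They come from RefSeq promoter windows of build GRCm38.p6, which run from 250 bases before to 50 bases after the gene start. The 250 bases before the start are printed 5′ to 3′ on the gene's strand, which is the plus strand for all 5, with the motif in capitals. The motif was searched on both strands as CCAAT and CCACG with 9 bases of any kind between them.
Pdia6: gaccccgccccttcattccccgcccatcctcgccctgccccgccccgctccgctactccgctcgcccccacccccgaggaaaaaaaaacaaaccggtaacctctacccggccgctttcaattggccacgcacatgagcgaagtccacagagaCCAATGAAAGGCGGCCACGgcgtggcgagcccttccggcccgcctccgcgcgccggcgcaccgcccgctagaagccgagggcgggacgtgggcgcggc
Creld2: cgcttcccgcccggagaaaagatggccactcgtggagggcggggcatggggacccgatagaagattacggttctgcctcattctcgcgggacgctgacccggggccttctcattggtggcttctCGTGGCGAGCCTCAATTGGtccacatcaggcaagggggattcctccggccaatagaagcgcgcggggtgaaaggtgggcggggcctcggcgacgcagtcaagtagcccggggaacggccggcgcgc
Derl3: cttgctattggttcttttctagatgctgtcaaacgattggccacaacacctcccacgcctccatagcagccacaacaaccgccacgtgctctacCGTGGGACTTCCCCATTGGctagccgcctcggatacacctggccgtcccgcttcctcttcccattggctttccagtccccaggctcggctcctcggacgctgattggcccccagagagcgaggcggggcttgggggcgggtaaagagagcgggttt
Ero1b: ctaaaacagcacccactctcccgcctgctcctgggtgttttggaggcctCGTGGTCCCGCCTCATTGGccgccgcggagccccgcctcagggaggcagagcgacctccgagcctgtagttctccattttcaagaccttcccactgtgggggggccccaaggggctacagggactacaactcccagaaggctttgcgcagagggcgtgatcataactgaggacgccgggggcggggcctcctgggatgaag
Syvn1: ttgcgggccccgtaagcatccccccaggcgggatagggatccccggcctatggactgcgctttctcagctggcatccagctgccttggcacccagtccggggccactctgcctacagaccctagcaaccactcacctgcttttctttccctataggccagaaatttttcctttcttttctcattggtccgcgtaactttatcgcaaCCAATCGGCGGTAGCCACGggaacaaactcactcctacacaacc
These windows lie at chr12:17266339-17266588 (Pdia6), chr15:88819396-88819645 (Creld2), chr10:75893148-75893397 (Derl3), chr13:12565633-12565882 (Ero1b) and chr19:6046326-6046575 (Syvn1). The first base of the motif lay at -98 from the start in Pdia6, -126 in Creld2, -156 in Derl3, -201 in Ero1b and -44 in Syvn1, on the minus strand in Creld2, Derl3 and Ero1b. Of 14453 genes with a window, 20 held the motif (0.138%), and 10 of the 34 list members with a window held it (29.4%). The motif was as common among the list members called lower, at 5 of 17 with a window (29.4%). Of the 20 genes, 7 were called lower with estradiol and 0 higher, where 7.30% of all genes were called lower. But 10 of the 20 and 5 of the 7 belong to the list, of which 47.5% were called lower. The count is therefore no separate result about the motif. Pdia6, a disulfide isomerase gene, read 1215 and 1176 with estradiol, against 3033 and 2767 in sham (-1.28, adjusted p = 0.00580). Creld2 read 634 and 666 with estradiol, against 1344 and 1450.1 in sham (-1.10, adjusted p = 0.00780). The oxidase gene Ero1b differed by -0.73 (adjusted p = 0.0397) and the ubiquitin ligase gene Syvn1 by -0.70 (adjusted p = 0.0307). The other called genes with the motif were Alg12, a glycosylation enzyme of the endoplasmic reticulum (-1.01), and the adenylyl cyclase gene Adcy3 (-1.30). Hspa5, Hsp90b1, Canx, Calr and Dnajc3 held it too and were not called. The palindromic estrogen response element, searched as GGTCA and TGACC with 3 bases of any kind between them, was in 5 windows, of which 0 belonged to called genes above 16. The sterol regulatory element, searched as ATCAC followed at once by CCCAC, was in 9 windows, 2 of them of genes called lower and 0 of the 17 of the cholesterol list. The androgen response element, searched as AGAACA and TGTTCT with 3 bases of any kind between them, was in 2 windows, 1 of them among the 26 of the androgen response list. All 3 were searched on both strands.

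Of 37 subunits of the respiratory chain 9 were called lower and 0 higher, with a median of -0.28, beside 7.30% of all genes lower and 10.0% higher. Ndufa1, of complex I, read 2398 and 2095 with estradiol, against 4829 and 5069 in sham, a 2.21-fold fall (adjusted p = 0.0108, and 0.0587 without sham replicate 1). Atp5g1, of the ATP synthase, fell 2.00-fold (adjusted p = 0.0122, and 0.0667 without sham replicate 1). The other probe set of Atp5g1 above 16 differed in the opposite direction. Without estradiol replicate 1 or 2, 2 members were called lower, and without sham replicate 1 or 2, 0 were.

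The genes called higher included enzymes, signalling genes and small GTPases. Cbs, which makes cystathionine from homocysteine, read 389 and 309.7 with estradiol, 34.5 and 63.8 with TP, 85.2 and 80.0 in castrated vehicle caput and 15.9 and 33.9 in sham, 15.0-fold higher than sham (adjusted p = 0.00993). Aox3, an aldehyde oxidase, read 326 and 219.8 with estradiol, 32.7 and 33.3 with TP, 74.5 and 78.9 in castrated vehicle caput and 23.4 and 18.1 in sham, 13.0-fold higher (adjusted p = 0.00378). For both genes the estradiol arrays lay above all 6 other caput arrays. The estradiol arrays also lay above those of the other 3 groups for the secreted protein gene Sectm1b (522 and 396 with estradiol, against 39.6 and 43.9 in sham, 10.9-fold, adjusted p = 0.00628). So they did for Tmem213 (10.9-fold, adjusted p = 0.00521), for Rem2, a GTPase that restrains calcium channels (9.27-fold, adjusted p = 0.00357), and for Nrtn. Nrtn encodes neurturin, a neurotrophic ligand of the RET receptor system, and read 1207 and 889 with estradiol, against 123 and 109 in sham (8.96-fold, adjusted p = 0.00521). P2ry2, a nucleotide receptor of epithelia, was below background on both sham arrays and at 76.5 and 98.3 with estradiol, at least 7.57-fold higher (adjusted p = 0.00340).

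Other genes called higher were also high in castrated vehicle caput. Rasl11a, a small GTPase gene, read 932 and 726 with estradiol, 944 and 1207 in castrated vehicle caput and 65.2 and 76.5 in sham, 11.6-fold higher than sham with estradiol (adjusted p = 0.00393). Lrrtm1, a leucine-rich repeat membrane protein gene, read 237 and 451 with estradiol, 401 and 476 in castrated vehicle caput and 26.7 and 24.0 in sham (12.9-fold, adjusted p = 0.00555). The kinesin gene Kif12 read 87.7 and 89.1 with estradiol and 193 and 181 in castrated vehicle caput, was below background on both sham arrays, and was at least 7.72-fold higher with estradiol than in sham (adjusted p = 0.00502) and Wdr31 at least 5.11-fold (adjusted p = 0.00930). Sostdc1, which encodes a secreted inhibitor of WNT and BMP signalling, was at least 8.12-fold higher (adjusted p = 0.0317, and 0.125 without estradiol replicate 1). Vnn1, a pantetheinase, read 141 and 393 with estradiol, 107 and 146 in castrated vehicle caput and 26.2 and 19.0 in sham, 10.5-fold higher with estradiol than in sham (adjusted p = 0.0162, and 0.0774 without sham replicate 2), and Cltrn, a partner of amino acid transporters, 9.02-fold (adjusted p = 0.0147, and 0.0680 without sham replicate 1).

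**Figure D4:**
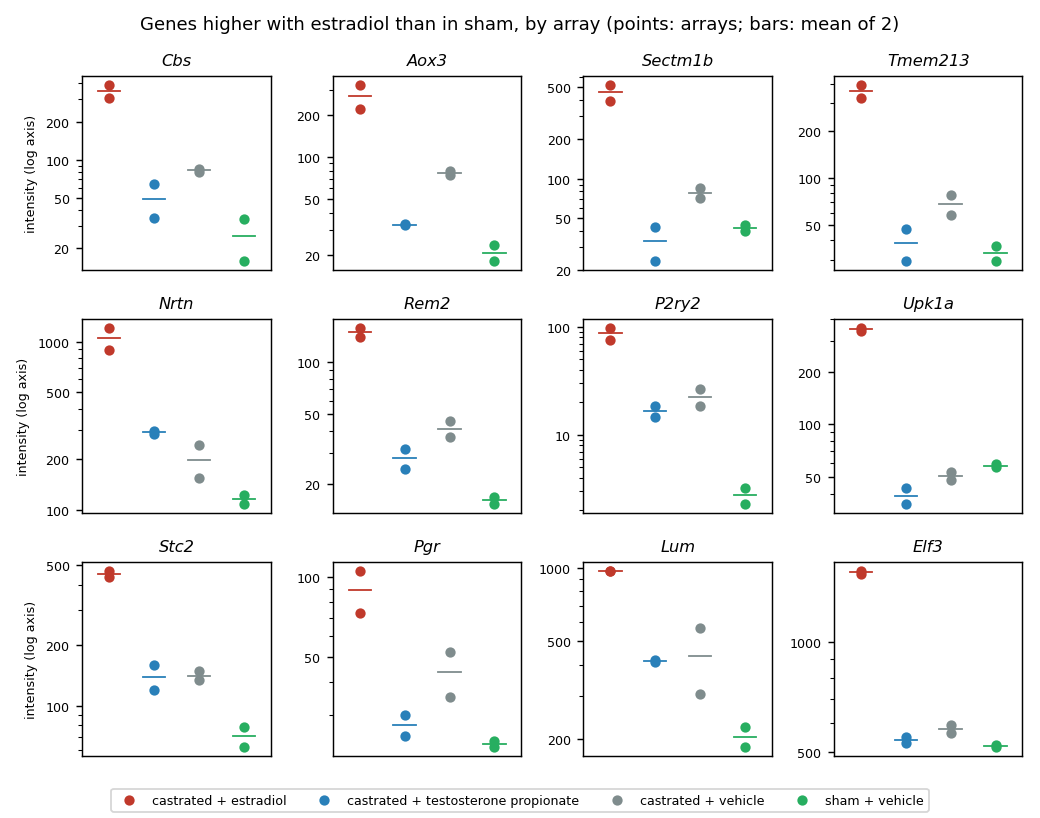
Intensity on a log axis for 12 genes called higher with estradiol than in sham, by array. Points are arrays and bars the mean of 2, for castrated mice with estradiol (red), castrated mice with TP (blue), castrated mice with vehicle (grey) and sham (green). In all 12 both estradiol arrays lie above the other 6 arrays.

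For estradiol minus castrated vehicle, limma called 0 of 18194 genes (0.00%), the smallest adjusted p was 0.0507, and 2644 genes had an unadjusted p under 0.05. The values of genes furthest from the castrated level are therefore given as a description, chosen by the size of that difference among genes called against sham. Upk1a, a uroplakin of urothelial membranes, read 358 and 342 with estradiol, 47.6 and 53.4 in castrated vehicle caput and 59.2 and 56.5 in sham, so that the estradiol arrays stood above both other groups. Elf5, an epithelial ETS factor gene, read 26.3 and 15.6 with estradiol, 149 and 199 in castrated vehicle caput and 164 and 147 in sham. Adra2c, an adrenergic receptor gene, read 218 and 245 with estradiol, 43.7 and 38.6 in castrated vehicle caput and 90.3 and 106 in sham. The 6 genes furthest from castrated vehicle in the direction of sham were Rnase10, Spink10, Alpl, Socs3, Asb11 and Rbfox3. Rnase10 read 67.8 and 92.6 with estradiol and 24.4 and 29.7 in castrated vehicle caput, and Spink10 read 133 and 137 with estradiol and 35.1 and 38.4 in castrated vehicle caput. Alpl, alkaline phosphatase, read 103 and 97.4 with estradiol, 32.5 and 26.04 in castrated vehicle caput and 511 and 482 in sham. Socs3, the cytokine feedback inhibitor, read 88.5 and 117 with estradiol, 413 and 206 in castrated vehicle caput and 19.3 and 24.7 in sham. Asb11, of a ubiquitin ligase family, read 131 and 145 with estradiol, 50.7 and 28.0 in castrated vehicle caput and 644 and 778 in sham (estradiol minus sham adjusted p = 0.0121, and 0.0609 without sham replicate 2). The splicing regulator gene Rbfox3 read 157 and 179.9 with estradiol, 41.3 and 52.1 in castrated vehicle caput and 472 and 342 in sham, 2.39-fold lower than sham (adjusted p = 0.0441, and 0.170 without sham replicate 1). Against sham, the adjusted p reached 0.0942 for Elf5, 0.0568 for Adra2c and 0.0927 for Socs3, all without sham replicate 1.

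Of 37 estrogen response genes, 16 were called higher with estradiol, 2 lower and 19 not, with a median of 0.72, where 10.0% of all genes were called higher. The number higher was 6 and 8 without estradiol replicate 1 and 2, and 3 and 5 without sham replicate 1 and 2, with 0 lower in each. In castrated vehicle caput 9 members were called higher than sham (7.88% of all genes) and with TP 8 were (4.78%), and the list's medians against sham were close to each other, at 0.72 with estradiol, 0.63 with TP and 0.65 in castrated vehicle caput. Of these members 3 were called higher with estradiol than with TP, and 0 were called against castrated vehicle. Stc2, a secreted stanniocalcin that estrogen induces in breast cells, read 471 and 436 with estradiol, 159 and 119 with TP, 134 and 148 in castrated vehicle caput and 78.0 and 62.3 in sham, 6.505-fold higher than sham (adjusted p = 0.00419). Pgr, the progesterone receptor gene and an estrogen target in uterus, read 72.9 and 105 with estradiol, 25.1 and 30.1 with TP, 35.1 and 52.2 in castrated vehicle caput and 24.1 and 22.9 in sham (3.73-fold, adjusted p = 0.0145, and 0.0713 without sham replicate 1). The growth regulator gene Myc read 138 and 120.3 with estradiol, against 14.0 and 29.2 in sham (6.37-fold, adjusted p = 0.0223, and 0.0948 without estradiol replicate 1). Greb1, another estrogen target, read 371 and 448 with estradiol, against 323 and 448 in sham (0.10, adjusted p = 0.853), and Vegfa was called lower (-0.90). Bcl2, which protects cells from apoptosis, read 444 and 468 with estradiol, 827 and 923 in castrated vehicle caput and 183 and 199 in sham (2.39-fold, adjusted p = 0.00639).

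Among steroid receptors and enzymes 4 of 26 genes were called higher (15.4%) and 3 lower (11.5%), with a median of -0.06. Over all genes the shares were 10.0% higher and 7.30% lower. The estrogen receptor gene Esr1 read 1126 and 1028 with estradiol, against 567 and 511 in sham, 2.00-fold higher (adjusted p = 0.0268, and 0.113 without sham replicate 2). In castrated vehicle caput Esr1 read 903 and 1065, and with TP 822 and 1097, so that estradiol minus castrated vehicle was 0.13 (log2). The membrane receptor gene Gper1 read 27.8 and 25.5 with estradiol, against 161 and 137 in sham, a 5.59-fold fall (adjusted p = 0.00391). Its readings were 29.0 and 23.6 in castrated vehicle caput and 22.5 and 21.5 with TP. Cyp11a1, which starts steroid synthesis from cholesterol, fell 3.12-fold (adjusted p = 0.00737), and Cyp17a1, which makes androgen precursors, fell 5.62-fold (adjusted p = 0.0481, and 0.172 without sham replicate 1). Cyp17a1 read 9.91 and 13.6 with estradiol, against 71.0 and 60.1 in sham. Background on those estradiol arrays was 8.48 and 9.20, so the size of its fall is uncertain. Hsd17b11, a steroid dehydrogenase gene, differed by 1.47 and the glucocorticoid receptor gene Nr3c1 by 1.15 (log2, both called). Of 12 Leydig and Sertoli cell markers 3 were called lower and 0 higher, and Cyp11a1 and Cyp17a1 are 2 of those 3. The markers called lower numbered 2 without estradiol replicate 1 and 1 without any other of these arrays, and the steroid genes called higher 3 and 2.

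Of 30 transcription factor genes of duct segments, 8 were called higher and 3 lower, with a median of 0.71, beside 10.0% of all genes higher and 7.30% lower. Elf3, an epithelial ETS factor gene, read 1542 and 1578 with estradiol, 548 and 527 with TP, 561 and 593 in castrated vehicle caput and 515 and 522 in sham (3.01-fold higher than sham, adjusted p = 0.00393, estradiol minus TP 1.54, adjusted p = 0.0138). Klf5 read 164 and 131 with estradiol, against 34.4 and 29.9 in sham (4.56-fold, adjusted p = 0.00681). Higher calls numbered 4 and 5 without estradiol replicate 1 and 2, and 3 and 5 without sham replicate 1 and 2, with 1 lower in each. Of 28 junction genes 7 were called higher and 2 lower, with a median of 0.34, beside 10.0% of all genes higher and 7.30% lower. Cldn2, a claudin that forms cation pores, read 1214 and 1172 with estradiol, against 3912 and 3827 in sham, a 3.24-fold fall (adjusted p = 0.00393). Cgn, or cingulin, was 2.49-fold higher (adjusted p = 0.0367, and 0.149 without sham replicate 1) and the kidney-type cadherin gene Cdh16 2.03-fold (adjusted p = 0.0134, and 0.0707 without sham replicate 1). Higher junction calls numbered 2 without estradiol replicate 1 and 0 without any other of these arrays. Of 33 ion, water and acid-base transport genes 4 were called each way (12.1%), beside 10.0% of all genes higher and 7.30% lower. The bicarbonate cotransporter gene Slc4a4 fell 4.36-fold (adjusted p = 0.00404) and the water channel gene Aqp9 fell 2.86-fold (adjusted p = 0.00441), while Atp1b1, of the sodium pump, was 2.42-fold higher (adjusted p = 0.00887, and 0.0527 without sham replicate 1). Transport genes called higher numbered 2 and 1 without estradiol replicate 1 and 2, and 1 and 5 without sham replicate 1 and 2, while 2 or 3 were called lower.

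Genes of apoptosis and regression were called higher in 10 of 29 cases and lower in 1, with a median of 0.45. Over all genes 10.0% were called higher and 7.30% lower with estradiol. The proapoptotic gene Bik read 68.1 and 83.6 with estradiol, against 24.1 and 25.4 in sham (3.05-fold, adjusted p = 0.00555), and the matrix protease gene Mmp2 was 2.61-fold higher (adjusted p = 0.0408, and 0.151 without sham replicate 2). Mmp7, another matrix protease gene, fell 3.599-fold (adjusted p = 0.0396, and 0.151 without sham replicate 1). In castrated vehicle caput against sham, 10 of 35 immediate early and cytokine feedback genes and 7 of 35 interferon response genes were called higher (7.88% of all genes). With estradiol against sham, the immediate early list had 10 of 35 higher and 1 lower, and the interferon list 7 of 35 higher and 1 lower. With 1 array left out these higher counts were 3, 4, 2 and 3 for apoptosis, 2, 1, 1 and 1 for immediate early genes, and 2, 1, 0 and 0 for interferon genes, in the order estradiol replicate 1, estradiol replicate 2, sham replicate 1 and sham replicate 2. Genes called lower on these 3 lists numbered 0 in each such fit, except for 1 immediate early gene without estradiol replicate 1. Of 29 cell cycle genes 4 were called higher and 2 lower, about the 10.0% and 7.30% of all genes, with Mcm7, of the replicative helicase, 2.53-fold higher (adjusted p = 0.0109, and 0.0616 without sham replicate 1). Cell cycle calls fell to 2 higher and 0 lower without sham replicate 2 and to 0 without sham replicate 1.

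**Figure D5:**
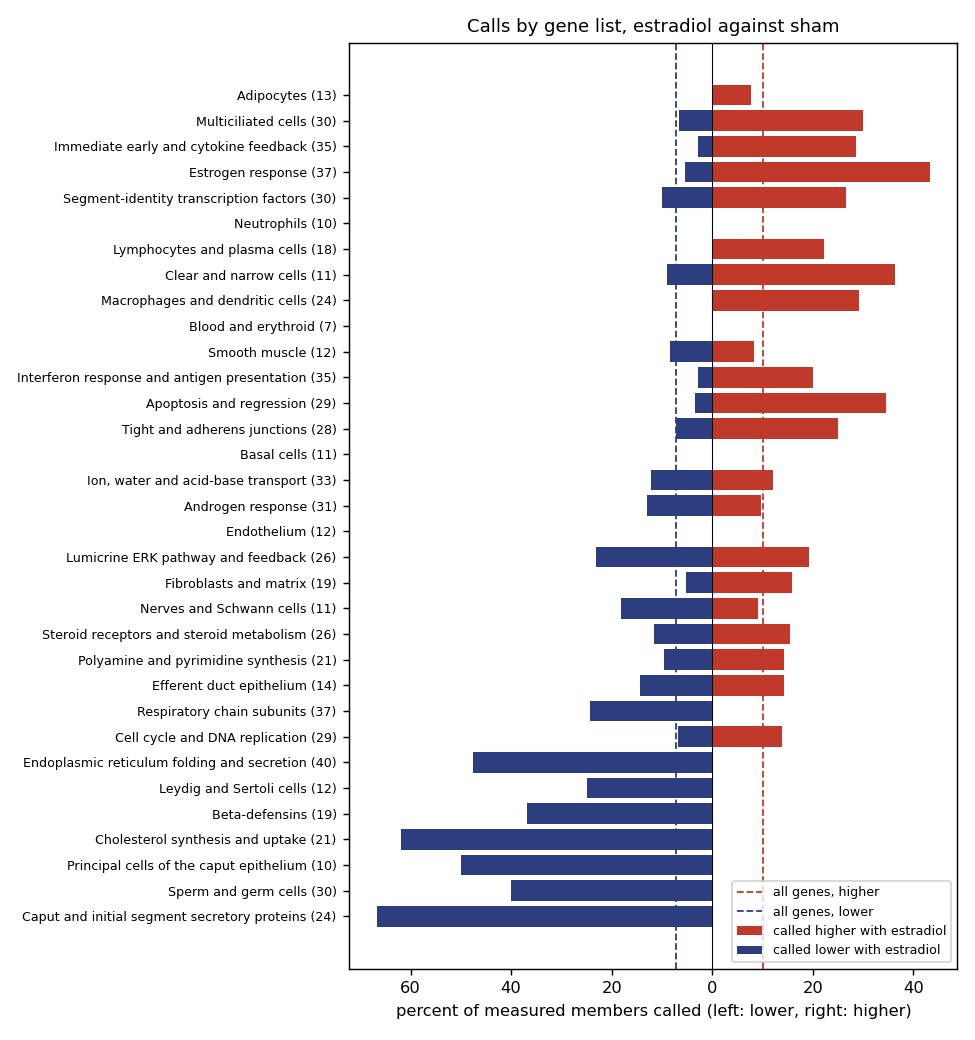
Share of measured members called higher (red, right) or lower (blue, left) with estradiol than in sham, for 33 gene lists ordered by their median difference, with the number of measured members in brackets. Dashed lines mark the shares over all genes, 10.0% higher and 7.30% lower. Secretory proteins, cholesterol synthesis and principal cell markers have the longest bars to the left, and estrogen response the longest to the right.

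Markers of cell types moved as well, and their part in the differences above was not tested. Over all genes 10.0% were called higher and 7.30% lower with estradiol. Of 30 sperm and germ cell markers 12 were called lower and 0 higher, with a median of -3.40, and their summed intensity was 1137 and 589 with estradiol, against 12162.5 and 3937 in sham. The sham arrays themselves differed. Prm2, a protamine that packs sperm DNA, read 62.1 and 17.8 with estradiol, against 2939 and 546 in sham (-5.25 ± 1.01, adjusted p = 0.0279, and 0.0965 without estradiol replicate 2), and Prm1 was not called (-3.09, adjusted p = 0.100). Odf1, of the sperm tail, was below background on both estradiol arrays and at 985 and 434 in sham, at least 74.1-fold lower (adjusted p = 0.00831). Called germ cell markers numbered 6 and 3 without estradiol replicate 1 and 2, and 2 and 5 without sham replicate 1 and 2. Principal cell markers had 5 of 10 called lower, 3 of them without estradiol replicate 2 or either sham array, and their sum was 15501 and 13689.6 with estradiol, against 38971 and 40005 in sham. The general epithelial members of that list were not called: Krt8 differed by -0.12, Krt18 by -0.02, Cdh1 by 0.46 and Epcam by 0.48 (log2).

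Clear and narrow cells acidify the lumen with proton pumps. Of their 11 measured markers 4 were called higher and 1 lower, with a median of 0.59, beside 10.0% of all genes higher and 7.30% lower. Rhcg read 59.9 and 39.0 with estradiol, against 1642 and 1846 in sham, a 36.0-fold fall (adjusted p = 0.00360), while the proton pump subunit gene Atp6v0a4 was at least 5.20-fold higher (adjusted p = 0.00993) and the receptor gene Kit 3.02-fold higher (adjusted p = 0.0120, and 0.0566 without estradiol replicate 1). Higher calls numbered 1 and 3 without estradiol replicate 1 and 2, and 2 without either sham array. Multiciliated cell genes had 9 of 30 called higher and 2 lower, with a median of 1.22, beside the same shares over all genes. Foxj1, the master regulator of motile cilia, read 188 and 114 with estradiol, against 43.0 and 42.1 in sham (3.45-fold, adjusted p = 0.0132, and 0.0675 without sham replicate 1), and Ccno and Cfap53 fell 5.71-fold (adjusted p = 0.00340) and 3.08-fold (adjusted p = 0.00426). Higher calls numbered 3 without sham replicate 2 and 1 without any other of these arrays.

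Of 24 macrophage and dendritic cell markers 7 were called higher and 0 lower, beside 10.0% of all genes higher and 7.30% lower. Their summed intensity was 9390.2 and 10167 with estradiol, against 6712 and 6578 in sham. Cd14, a receptor for bacterial lipopolysaccharide, read 244 and 287 with estradiol, against 88.8 and 79.4 in sham (3.15-fold, adjusted p = 0.00509). Of 18 lymphocyte and plasma cell markers 4 were called higher, with a sum of 1229.8 and 1597 with estradiol, against 265 and 284 in sham. Igha, the immunoglobulin A heavy chain gene, read 548 and 529 with estradiol, 396 and 709.5 in castrated vehicle caput and 32.8 and 33.7 in sham (16.2-fold, adjusted p = 0.00637), and Jchain, which joins secreted immunoglobulins, was 7.96-fold higher (adjusted p = 0.0136, and 0.0678 without sham replicate 1). With 1 array left out, markers called higher numbered 1, 1, 1 and 2 for macrophages and 2, 1, 1 and 3 for lymphocytes, in the order estradiol replicate 1, estradiol replicate 2, sham replicate 1 and sham replicate 2. Without estradiol replicate 2, 1 lymphocyte marker was also called lower.

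Lum, a matrix proteoglycan, read 972 and 973 with estradiol, 304 and 568 in castrated vehicle caput and 222 and 185 in sham (4.79-fold, adjusted p = 0.0129, and 0.0636 without sham replicate 2), and 3 of 19 fibroblast and matrix markers were called higher and 1 lower, or 1 higher without estradiol replicate 2 and 0 without any other of these arrays. Over all genes 10.0% were called higher and 7.30% lower. The collagen gene Col1a1 was not called (-0.22 ± 0.42, adjusted p = 0.757). Of 12 smooth muscle markers 1 was called each way, and the lower one was Actg2, the enteric actin, with 282 and 202 with estradiol, 210.3 and 178 in castrated vehicle caput and 4982 and 4426 in sham (19.7-fold lower than sham, adjusted p = 0.00274). Acta2, the vascular actin, was not called (0.09, adjusted p = 0.790). All 13 adipocyte markers had positive differences, with a median of 1.49. The lipase gene Pnpla2 alone was called (0.96, adjusted p = 0.0244), and without any 1 of the 4 arrays 0 markers were. Their summed intensity was 4263 and 8183 with estradiol, 1335 and 5339.9 in castrated vehicle caput and 2162 and 1738 in sham, so that replicates of a group differed widely. Adipoq, the adipocyte hormone adiponectin, read 314 and 682 with estradiol, against 108 and 88.0 in sham (2.24 ± 0.96, adjusted p = 0.172).

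Many abundant transcripts had narrow intervals around 0. For 1520 genes the 95% interval of the difference lay within 0.5 of 0 on the log2 scale. The brightest of them in sham were the ribosomal protein genes Rps3a1, Rpl38, Rps14, Rps10 and Rpl37a and the protease inhibitor gene Spink8. Rps3a1 read 9192 and 8650.1 with estradiol, against 9002 and 9119 in sham (-0.02 ± 0.14). The reference genes Actb, with 6234 and 6010.3 with estradiol, against 6057 and 6339.5 in sham (adjusted p = 0.937), and Gapdh, with 2918 and 2664 with estradiol, against 3226 and 3106 in sham (adjusted p = 0.360), were not called.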

How the data were processed

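The 16 one-colour mouse expression arrays cover efferent duct and caput epididymis, and the 8 caput arrays entered the fit. The submitters' processing notes name RMA, whose output is on a log scale, but the deposited intensity values are linear, and the mean of each array without its highest and lowest 2% was 125. The values were therefore used as linear intensity, with log2 taken here and no further normalization. Of 45101 probe sets, 34958 had 1 gene symbol in the platform annotation, 932 had several and 9211 had none. Each gene was represented by its brightest probe set with 1 symbol.

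Differences were fitted over all 18194 genes with limma 3.58.1 (R 4.3.3), with a mean per caput group and Benjamini-Hochberg adjustment, and tested on simulated data. Tables were made with Python 3.11.15 and pandas 2.3.3. The 4 caput groups share 1 estimate of the spread, with 4 residual degrees of freedom. Named genes were the 12 largest falls and rises among called genes that were above background on all 4 arrays and did not overlap between groups, and the 6 largest bounds each way. Up to 4 called members of each list followed, then the 6 genes furthest beyond and furthest back from castrated vehicle, the 6 brightest genes with an interval within 0.5 of 0, and a set of fixed genes. Other list members in the text were chosen after their values were seen. The members and lists were chosen with earlier results of these data known. The other probe sets above 16 of Atp5g1, Cycs, Nr4a2, Bub1b, Uck2, Rps14, Rps10, Clu, Col1a1 and Actb did not all share the sign of the one used. Alternatives changed the filter, normalization, probe set rule, variance model, floor and the arrays fitted. Efferent duct comparisons were left out.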

Additional observations from a re-analysis of the deposited data

Results flagged for a closer look

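Of 5279 probe sets above 16 that carry no gene symbol or several, and so enter no gene-level result, 626 were called higher with estradiol than in sham and 155 lower (limma, adjusted p under 0.05). Here p was adjusted over all 45101 probe sets. Of the genes above 16, adjusted over 18194 genes, 12.5% were called higher and 8.89% lower. The share of these probe sets called higher was thus close to that of the genes, and the share called lower was smaller. One of those higher read 725 and 689 with estradiol, against 60.3 and 52.7 in sham, and another read 565 and 827 with estradiol, against 69.3 and 68.4 in sham. A probe set among those lower read 21.2 and 17.9 with estradiol, against 979 and 583 in sham. These signals lie outside the gene-level measurement. With 2 arrays per group no array was tested for standing apart from its group.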

How the results depend on the processing

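The count of 3148 genes called for estradiol minus sham became 2033 when the probe sets of each gene were averaged. It became 4966 when limma's variance followed intensity, and 5 when the other caput groups were dropped from the fit. Leaving out 1 of the 4 arrays gave 589 to 1337. In fits chosen after seeing the data, leaving out 1 TP array gave 2044 and leaving out 1 castrated vehicle array gave 1953. All these fits without arrays have fewer residual degrees of freedom, and a group left with 1 array is assumed to vary like the others. The other filters, floors, quantile normalization and the fit of all 16 arrays kept the count within 1.5 times. The split by direction depended on scaling: quantile normalization gave 1524 higher and 1429 lower, against 1819 and 1329 in the main fit. Averaged probe sets gave 1062 and 971. With quantile normalization, interferon genes called higher went from 7 to 2, and respiratory chain genes called lower from 9 to 4. Secretory genes called lower went from 16 to 15, and cholesterol genes from 13 to 14. The differences between replicate 1 and replicate 2 correlated between caput groups at only -0.0624 to 0.0812. The main fit therefore used no pairing by replicate number, and a replicate block gave 2214 calls. Of 148 named genes, 15 lost their call with the block, 31 with averaged probe sets, 8 with quantile normalization and 129 with the 4 arrays alone, and no called gene among them changed direction under any alternative, while Tyms and Cd8b1 had no difference left with values under 16 set to 16. Depth is unknown for arrays, and genes near background have only bounds.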

Other observations

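Several lists had few or no calls, beside 10.0% of all genes called higher and 7.30% lower. Basal cells lie under the principal cells. None of their 11 measured markers was called, with differences between -1.49 (Krt17, a keratin gene) and 1.39 (Ngfr, a neurotrophin receptor gene). None of 12 endothelial markers was called, with differences between -1.52 (Plvap) and 0.42 (Cldn5), and none of 10 neutrophil markers, with differences between -0.36 (Csf3r) and 3.94 (Camp). The Camp value rests on estradiol arrays of 15.3 and 73.8, against sham arrays of 2.43 and 1.98, both below background in sham. Of 11 nerve and Schwann cell markers 2 were called lower and 1 higher, and 0 higher without any 1 of the 4 arrays. S100b, a calcium-binding protein gene, was below background on both estradiol arrays and read 55.5 and 52.7 in sham (adjusted p = 0.00419 by limma). Uchl1, a ubiquitin hydrolase gene of neurons, read 34.3 and 37.0 with estradiol, against 123 and 159 in sham (adjusted p = 0.0148 by limma), and was called in 0 of the 4 fits without 1 array (up to 0.0705 without sham replicate 2).

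Of 14 efferent duct epithelium markers 2 were called each way, beside 10.0% of all genes higher and 7.30% lower. This became 1 each way without either estradiol array and 0 without either sham array. Esr1 and Foxj1 were higher, the protease gene Ctsh and the carbonic anhydrase gene Car14 were lower, and the summed intensity of the list was 5757 and 5514 with estradiol, against 6605 and 6240.5 in sham. Of 21 genes of polyamine and pyrimidine synthesis 3 were called higher and 2 lower, beside the same shares, and the number higher was 1 without estradiol replicate 1 and 0 without any other of these arrays. Of 7 blood and erythroid markers none was called.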
